A study of Mus musculus with 4 samples.

Results

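Hilar mossy cells were followed in single-nucleus RNA counts from the frozen hippocampus of adult wild-type (WT) mice and of Cyfip2+/R87C knock-in (KI) mice. The KI mice are heterozygous for an amino acid change in CYFIP2, a subunit of the actin-regulating WAVE complex, and serve as a model of an infantile epilepsy. There were 2 WT and 2 KI mice on a C57BL/6N background, with 1 library per mouse and the same batch label for all 4. The treatment label of KI replicate 2 reads R88C where that of KI replicate 1 reads R87C, and both were kept as KI by their genotype labels. The nuclei were selected on their own counts. A nucleus was kept when at least 3 of Calb2, Csf2rb2, Drd2, Glipr1, Gal, Sv2c and Ajap1 had a UMI (unique molecular identifier, 1 counted transcript), with 1 of the first 4 among them, when Slc17a7 was detected, and when markers of inhibitory neurons, Cajal-Retzius cells and glia were absent or nearly so. This rule chose 90 of 55295 filtered nuclei, 32 and 27 in WT replicates 1 and 2 and 14 and 17 in KI replicates 1 and 2. They are called the marker-selected nuclei here, and values per library are given in this order throughout.

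Mossy cells are large glutamatergic neurons of the dentate hilus. Granule neurons excite them through the mossy fibres, and their axons return to the inner molecular layer of both hemispheres, where they contact granule neurons and interneurons. They are known for their early loss in temporal lobe epilepsy. Calretinin (Calb2), the dopamine receptor gene Drd2 and the cytokine receptor subunit gene Csf2rb2 are among the genes that set mouse mossy cells apart from their neighbours.

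The marker-selected nuclei were deep ones. Their median depth was 9065, 11144, 14364 and 13876 UMIs, against 3987, 4631, 4752 and 4853 UMIs over all filtered nuclei. Their summed counts were 294594, 314010, 233556 and 260181 UMIs, so 1 UMI was worth at most 4.28 CPM (counts scaled to the same total of UMIs in every library). Any pair of libraries shared 39 to 66 barcodes, and 0 of the shared barcodes were marker-selected.

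Whether the selected nuclei are mossy cells was checked with genes that the rule did not use. For each nucleus the likelihood of its counts was computed under 6 reference profiles (mossy, granule, CA3, CA1, inhibitory, and subicular or cortical). The mossy profile came from the 22 selected nuclei with at least 4 of the markers, 16 WT and 6 KI, and each of these was left out of the profile when it was scored itself. The mossy profile was the most likely one for 50 of the 90 nuclei, or 55.6% (exact binomial 95% interval 44.7 to 66.0). Of the other nuclei, 14 were most like CA1 neurons, 11 like granule neurons, 9 like subicular or cortical neurons and 6 like CA3 neurons. The label thus held for only part of the nuclei. The share with the mossy profile was 71.9%, 55.6%, 42.9% and 35.3% by library, lower in both KI libraries, a difference that was not tested. The mossy profile was found in 38 of 59 WT nuclei (64.4%) and in 12 of 31 KI nuclei (38.7%), and by library in 23, 15, 6 and 6 nuclei.

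**Figure D1:**
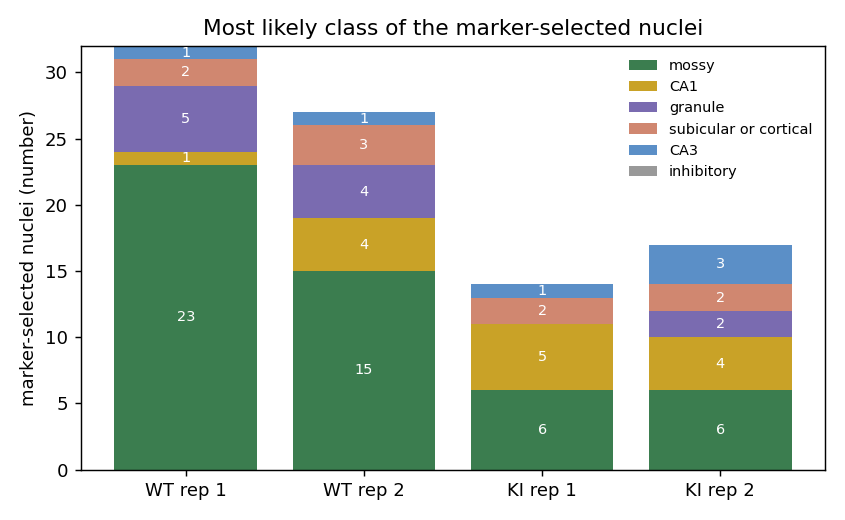
Number of marker-selected nuclei in each library, coloured by the class whose reference profile was the most likely one without the rule genes. The mossy class holds 23 and 15 nuclei in the WT libraries and 6 in each KI library, where the other classes together hold more nuclei than the mossy class.

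The mossy profile came from nuclei with at least 4 markers, 19 of 22 of them with Csf2rb2 and 1 with Sv2c. That 21 of these 22 matched it, and how the match moved with single markers, therefore follow in part from how the profile was made and are only described here. None of the 68 nuclei with exactly 3 markers contributed to the profile, and 29 of them matched it. Just outside the rule, 424 gated nuclei had 2 markers with 1 of the first 4 among them, and 59 of these had the mossy profile. Among the nuclei with exactly 3 markers 22 of 23 with Csf2rb2 matched, against 3 of 33 with the synaptic vesicle gene Sv2c. The combination of Calb2, Csf2rb2 and Ajap1 gave 8 of 8, whereas Glipr1, Sv2c and Ajap1 gave 0 of 14, Drd2, Sv2c and Ajap1 gave 0 of 9, and Calb2, Sv2c and Ajap1 gave 1 of 8.

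Because of this mix a companion set was made after the data had been seen. It held every nucleus that passed the exclusion gates and was most likely under the mossy profile, whatever its markers: 176 nuclei (67, 44, 36 and 29), of which 50 were marker-selected, with 548547, 463262, 407875 and 290603 UMIs. They are called the profile-matched nuclei. Since their reference held more WT than KI nuclei and used the genes that are compared below, the matching can favour nuclei that resemble the WT ones. With this profile, 1 of 2051 nuclei with granule markers, 2 of 6082 with CA1 markers and 0 of 540 with subicular or cortical markers were assigned to the mossy class, against 68 of 2319 with CA3 markers (2.93%). These 68, which had at least 3 of 9 CA3 markers and at least 2 more than of the granule or CA1 markers, made up 38.6% of the 176 profile-matched nuclei, with 18 of 67, 13 of 44, 20 of 36 and 17 of 29 by library, a larger share in both KI libraries. Of the 50 nuclei that were both marker-selected and profile-matched, 25 met the same count of CA3 markers.

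The rule genes describe the members and were not tested between classes. Ajap1, which encodes an adherens junction-associated membrane protein, was detected in 90.6% to 100% of the marker-selected nuclei. It had 166, 175, 98.5 and 119 CPM in the marker-selected nuclei and 170, 171, 130 and 179 CPM in the profile-matched nuclei, against at most 55.0 CPM in granule and CA3 neurons. Csf2rb2 had 109, 63.7, 21.4 and 23.1 CPM in the marker-selected nuclei and 87.5, 84.2, 22.1 and 65.4 CPM in the profile-matched nuclei. Its highest value was 0.383 CPM in granule neurons and 3.11 CPM in CA3 neurons. The low value of KI replicate 1 stood in both sets, whereas KI replicate 2 was much lower in the marker-selected than in the profile-matched nuclei.

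Calb2 had 91.7, 54.1, 42.8 and 38.4 CPM in the marker-selected nuclei and 80.2, 41.0, 34.3 and 24.1 CPM in the profile-matched nuclei. WT replicate 1 was highest in both sets, and WT replicate 2 lay closer to the KI libraries than to it. Drd2 had 19, 8, 6 and 6 UMIs in the marker-selected nuclei and 18, 7, 18 and 3 in the profile-matched nuclei, and in CPM the genotypes overlapped in both sets. The neuropeptide gene Gal was almost undetected, with 3, 0, 0 and 1 UMIs in the marker-selected nuclei. Sv2c had 40.7, 38.2, 47.1 and 49.97 CPM in the marker-selected nuclei but 0, 4.32, 2.45 and 10.3 CPM in the profile-matched nuclei, while granule neurons had 52.4, 69.4, 113 and 66.7 CPM.

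Detection in a class that should lack these genes was taken as their background. Among oligodendrocytes, whose median depth was 1690 to 3074 UMIs, Ajap1 was detected in 5.59% to 13.8% of nuclei, Sv2c in 4.52% to 12.6%, Calb2 in 0.845% to 1.88%, Drd2 in 0.148% to 0.509% and Csf2rb2 in 0.102% to 0.444%. Csf2rb2 was detected in 47.8%, 50%, 19.4% and 48.3% of the profile-matched nuclei and Calb2 in 41.8%, 36.4%, 33.3% and 24.1%, values that the rule shaped through the marker-selected nuclei among them and through the reference. Of the profile-matched nuclei that were not marker-selected, 27.3%, 34.5%, 10% and 39.1% had Csf2rb2 and 25%, 17.2%, 23.3% and 13.0% had Calb2, also only a description.

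Genes outside the rule were ranked by how far they stood above the granule, CA3 and CA1 classes in the library where that ratio was lowest. Prrx1, a homeobox transcription factor gene (chr1:163245119-163313710, minus strand, GRCm38), led, with a lowest ratio of 5.40 in the marker-selected nuclei and 13.4 in the profile-matched nuclei. Since the profiles were made of genes outside the rule, these genes helped to assign the profile-matched nuclei, and their levels there are a description. It had 81.5, 60.5, 12.8 and 34.6 CPM in the marker-selected nuclei and 85.7, 69.1, 31.9 and 82.6 CPM in the profile-matched nuclei.

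The cation channel gene Trpc7 (chr13:56773113-56895993, minus strand) had 160, 115, 68.5 and 73.0 CPM in the marker-selected nuclei and 188, 162, 130 and 172 CPM in the profile-matched nuclei, against at most 24.0 CPM in granule, CA3 and CA1 neurons. Tmem132c (chr5:127241808-127565793, plus strand), which encodes a membrane protein, had 143, 82.8, 34.3 and 46.1 CPM and 139, 108, 90.7 and 99.8 CPM. In Prrx1, Trpc7 and Tmem132c both KI libraries lay below both WT libraries in the marker-selected nuclei. Among the profile-matched nuclei the genotypes overlapped for Prrx1 and Trpc7 and did not for Tmem132c.

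The predicted gene Gm32647 (chr7:94042691-94709171, plus strand) had the highest level of the ranked genes named here. It had 6708, 4720, 5296 and 3513 CPM in the marker-selected nuclei and 7801, 7611, 9483 and 8100 CPM in the profile-matched nuclei, against 775 to 1127 CPM in CA3 neurons and at most 162 CPM in granule or CA1 neurons. Gm44601 (chr7:94368983-94372572, minus strand), another ranked gene, lies inside its span. Also ranked were Gm42397, Rab37, Gm45323, Col26a1, Gm28153 and Emid1. Gm45323 and Col26a1 were higher still in inhibitory neurons, with 264 to 334 CPM and 66.1 to 77.8 CPM.

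**Figure D2:**
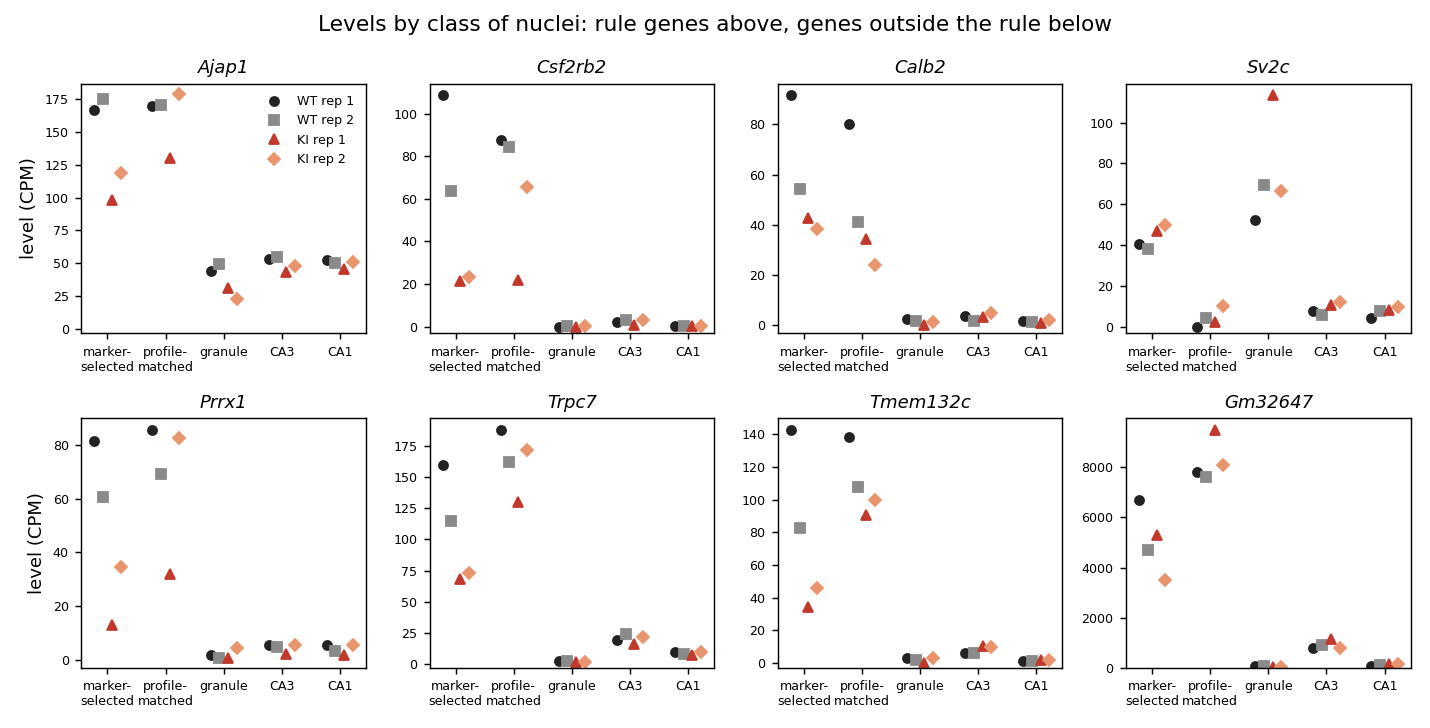
Level in CPM of 4 rule genes (upper row) and 4 genes outside the rule (lower row) in the marker-selected and profile-matched nuclei and in granule, CA3 and CA1 neurons, with 1 point per library. Prrx1, Trpc7, Tmem132c and Gm32647 stand above the granule, CA3 and CA1 classes in all 4 libraries, whereas Sv2c is high in granule neurons and at most 10.3 CPM in the profile-matched nuclei.

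The marker-selected nuclei were a smaller share of all filtered nuclei in both KI libraries than in both WT libraries. They made up 0.2002%, 0.205%, 0.112% and 0.125%, or 0.203% ± 0.00347 in WT and 0.118% ± 0.00956 in KI (mean ± SD, 2 libraries each). An exact two-sided permutation test over 2 against 2 libraries cannot go below p = 0.333, the value it gave. The exact 95% intervals for counting error were 0.137% to 0.283%, 0.135% to 0.298%, 0.0610% to 0.187% and 0.0729% to 0.2001%. Those of them with the mossy profile made up 0.144%, 0.114%, 0.0478% and 0.0441%. The profile-matched nuclei made up 0.419%, 0.334%, 0.287% and 0.213% (0.377% ± 0.0601 and 0.25% ± 0.0519).

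The reference population changed this picture. Among granule, CA3, CA1 and mossy nuclei the marker-selected ones made up 0.937%, 0.829%, 0.726% and 0.636%. The profile-matched ones made up 1.95%, 1.35%, 1.86% and 1.09%, so KI replicate 1 lay between the WT libraries. The granule class held 823, 752, 238 and 436 nuclei, so the other classes moved with genotype too, and their part in the shares was not tested. After each nucleus had been thinned to 2000 UMIs the rule kept 1, 1, 0 and 0 nuclei, too few to compare. The mossy profile was found in 28, 23, 7 and 12 of 12827, 11192, 9955 and 11882 thinned nuclei. Here the reference nuclei, more of them WT than KI, were not left out of the profile when scored. This can favour WT, so these numbers are only a description. Fewer mossy cells and less RNA per mossy cell cannot be told apart by a rule that needs several transcripts in 1 nucleus.

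**Figure D3:**
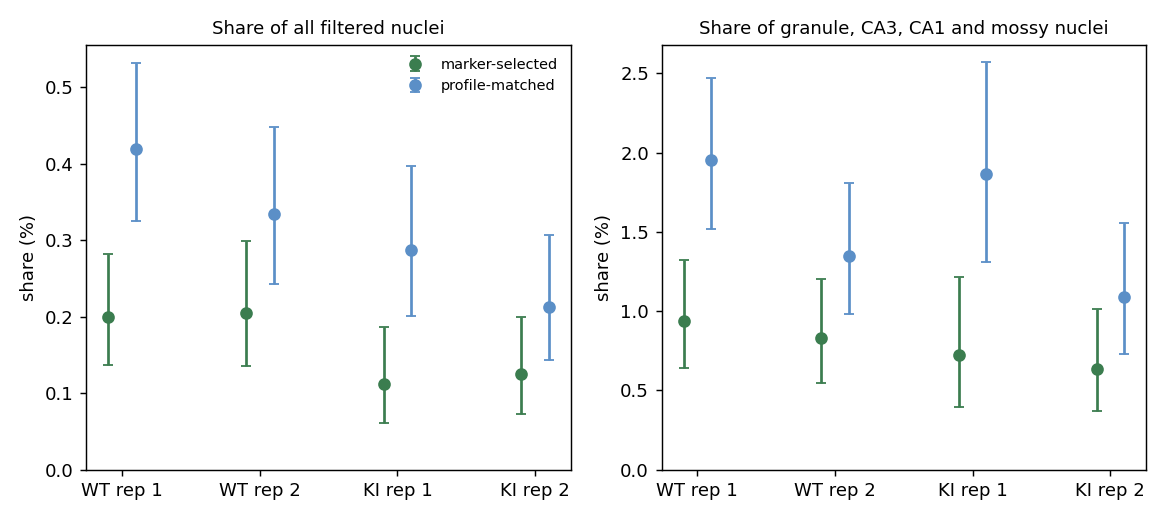
Share in percent of marker-selected and profile-matched nuclei in each library, of all filtered nuclei (left) and of granule, CA3, CA1 and mossy nuclei (right), with exact 95% binomial intervals that cover counting error only. Both KI shares are below both WT shares on the left, whereas on the right the profile-matched share of KI replicate 1 (1.86%) lies between the WT values of 1.95% and 1.35%.

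The edited gene was measured first in the comparison of genotypes. Cyfip2 had 160, 127, 163 and 112 CPM in the marker-selected nuclei (log2 fold change of KI over WT 0.06 ± 0.30 SE, adjusted p = 0.979, edgeR) and 157, 114, 130 and 151 CPM in the profile-matched nuclei (0.14 ± 0.24, adjusted p = 0.860). The genotypes overlapped in both sets. The allele changes an amino acid, so the level of the transcript does not check the genotype labels. Its paralogue Cyfip1 had 132, 182, 124 and 135 CPM in the marker-selected nuclei. Of 22 genes of the WAVE and Arp2/3 actin machinery, 18 were tested in the marker-selected and 20 in the profile-matched nuclei, and none passed in either set by edgeR or DESeq2, with 0 and 1 at an unadjusted p below 0.05, against 10.5% and 12.4% of all tested genes.

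Counts were summed over the nuclei of a library, so that the mouse was the replicate, and the p-values measure the spread between these 4 libraries only. In the marker-selected nuclei 3 of 4509 tested genes passed an adjusted p of 0.05 (0.0665%), all higher in KI. An unadjusted p below 0.05 was found for 474, and DESeq2 called 9. Leaving out KI replicate 1 gave 44, KI replicate 2 gave 101 and WT replicate 2 gave 10, in fits where the lone library of a genotype is taken to vary like the others.

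Malat1, a nuclear long noncoding RNA (chr19:5795690-5802672, minus strand), made up 6.75%, 7.34%, 11.45% and 11.82% of the UMIs in the marker-selected nuclei. It rose by a log2 fold change of 0.86 ± 0.09 (adjusted p = 0.0116), and with library totals as the scale it did not pass (adjusted p = 0.0866). Malat1 made up, among the profile-matched nuclei, 7.0%, 6.32%, 11.35% and 10.16% (0.81 ± 0.07, adjusted p = 2.09e-06). The log2 fold change of Malat1 was 0.91 in granule neurons (adjusted p = 0.00355), 0.47 in CA3 neurons (adjusted p = 0.0404) and 0.63 in CA1 neurons (adjusted p = 0.0851).

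Pcdh15, a protocadherin gene (chr10:73099342-74649737, plus strand), had 418, 519, 1319 and 1176 CPM in the marker-selected nuclei (1.54 ± 0.19, adjusted p = 0.0300). The profile-matched nuclei had 341, 335, 662 and 341 CPM of Pcdh15, which did not pass there (0.71 ± 0.23, adjusted p = 0.20). The call also ended without WT replicate 1 and among the marker-selected nuclei that had the mossy profile. Gpc5, a glypican gene (chr14:115092215-116525179, plus strand), had 265, 268, 933 and 876 CPM in the marker-selected nuclei (1.90 ± 0.20, adjusted p = 0.0116), where a single nucleus held 36.7% of its UMIs in KI replicate 1 and 60.1% in KI replicate 2. Gpc5 had, among the profile-matched nuclei, 191, 145, 294 and 368 CPM (1.07 ± 0.21, adjusted p = 0.0214), and this call ended without WT replicate 2 (0.89, adjusted p = 0.252). Among the marker-selected nuclei that had the mossy profile the log2 fold change of Gpc5 was 0.92 (adjusted p = 0.0960), and among those with at least 4 markers it was 1.08 (adjusted p = 0.313), so its call ended in both.

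Both genes were also higher in KI among the marker-selected nuclei that lacked the mossy profile. Their mean level of Pcdh15 was 542 CPM in WT and 1654 CPM in KI, and that of Gpc5 was 207 and 1216 CPM. Their means were higher in KI in the other classes too. Pcdh15 had means in WT and KI of 492 and 1350 CPM in CA1 neurons, 124 and 355 CPM in CA3 neurons and 96.6 and 272 CPM in granule neurons. Gpc5 had 640 and 2245 CPM, 125 and 411 CPM, and 86.8 and 204 CPM in the same order. Summed over 8 CA1 marker genes, the marker-selected nuclei had 954, 1207, 1858 and 1468 CPM, and over 9 CA3 marker genes 1690, 1506, 925 and 1007 CPM. For the profile-matched nuclei the CA1 sums were 1026, 935, 1194 and 1087 CPM and the CA3 sums 1706, 1748, 1545 and 1641 CPM. In both sets the CA1 sum was higher and the CA3 sum lower in both KI libraries than in both WT libraries. The single markers and nuclei of the profile-matched set did not follow these sums. Of 4 tested CA3 markers 3 had a log2 fold change above 0 there (median 0.10), as had 1 of 2 tested CA1 markers. The nuclei that had CA3 markers made up 26.9%, 29.6%, 55.6% and 58.6% of that set, a larger share in KI. The part of this mix in the 3 calls was not tested.

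The genes next in line in the marker-selected nuclei did not pass the test by edgeR. Some of them passed in the profile-matched nuclei. The long noncoding RNA gene A230006K03Rik had 316, 341, 749 and 657 CPM in the marker-selected nuclei (1.23 ± 0.20, adjusted p = 0.138) and a log2 fold change of 1.17 in the profile-matched nuclei (adjusted p = 0.00478). Dpyd, which encodes the pyrimidine-degrading enzyme dihydropyrimidine dehydrogenase, had an adjusted p of 0.178 in the marker-selected nuclei and a log2 fold change of 1.04 in the profile-matched nuclei (adjusted p = 0.0124). Fbxl7 and Map6, described with the profile-matched nuclei, had log2 fold changes of -1.80 (adjusted p = 0.169) and -1.87 (adjusted p = 0.186) in the marker-selected nuclei. DESeq2 called A230006K03Rik and Dpyd in the marker-selected nuclei (adjusted p = 0.00954 and 0.00782). Others had smaller values in the profile-matched nuclei. The protocadherin gene Pcdh7 had 346, 430, 758 and 969 CPM (1.28 ± 0.21, adjusted p = 0.138) and the sorting receptor gene Sorcs3 had 194, 280, 754 and 500 CPM (1.53 ± 0.27, adjusted p = 0.169). DESeq2 called both (adjusted p = 0.00673 and 0.00569), and their log2 fold changes in the profile-matched nuclei were -0.02 and -0.33. Ano4, an anoctamin gene, had 64.5, 118, 381 and 238 CPM (1.88 ± 0.34, adjusted p = 0.169, and 0.00673 by DESeq2) and a log2 fold change of 0.70 in the profile-matched nuclei (adjusted p = 0.248). Foxp2, a transcription factor gene of deep cortical and subicular neurons, had 0, 0, 22 and 12 UMIs, of which a single nucleus held 77.3% in KI replicate 1 and 75.0% in KI replicate 2, and it had 0, 0, 1 and 1 UMIs in the profile-matched nuclei. Sfmbt2, a Polycomb-group gene, had 95.1, 60.5, 4.28 and 7.69 CPM (-3.45 ± 0.61, adjusted p = 0.169). Its log2 fold change was -1.32 in the profile-matched nuclei (adjusted p = 0.222), and it passed among the marker-selected nuclei that had the mossy profile (adjusted p = 0.00157, in a range of 0.00017 to 0.955 over its alternatives). The mineralocorticoid receptor gene Nr3c2 had 710, 771, 403 and 327 CPM (-0.89 ± 0.20, adjusted p = 0.258), and its log2 fold change was -0.17 in the profile-matched nuclei (adjusted p = 0.735).

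In the profile-matched nuclei 44 of 6296 tested genes passed (0.699%), of which 34 were higher in KI and 10 lower. An unadjusted p below 0.05 was found for 783 (12.4%). DESeq2 gave an adjusted p for 26 of the 44 and called 16 of them. With library totals as the scale, which moved the median of all genes by a log2 value of -0.12, there were 17 higher and 18 lower. Leaving out KI replicate 2 gave 334 genes and leaving out KI replicate 1 gave 68. Of the 44 genes, 26 still passed without KI replicate 1, 43 without KI replicate 2, 24 without WT replicate 1 and 26 without WT replicate 2. Without the 68 nuclei that had CA3 markers 15 of 4654 genes passed, 14 of them among the 44. Of the 3 genes called in the marker-selected nuclei, Malat1 and Gpc5 were among the 44.

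Of the 34 genes that rose, 12 were named by the size of their change. Sorcs1, a sorting receptor gene (chr19:50143299-50678646, minus strand), had 56.5, 47.5, 292 and 148 CPM (2.22 ± 0.31, adjusted p = 0.00271). Its call was kept in all 11 alternative fits, with a log2 fold change of 1.60 without KI replicate 1. Adcy8, a calcium-stimulated adenylyl cyclase gene, had 18.2, 21.6, 103 and 55.1 CPM (2.15 ± 0.40, adjusted p = 0.0181), and its call ended without KI replicate 1 (1.57, adjusted p = 0.184). Dpp10, an auxiliary subunit gene of Kv4 potassium channels, had 135, 268, 613 and 468 CPM (1.57 ± 0.24, adjusted p = 0.00478), but was not called by DESeq2 (adjusted p = 0.171). In each of them both KI libraries stood above both WT libraries, with KI replicate 1 the highest.

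Lrrtm4, which encodes a postsynaptic adhesion protein, had 534, 779, 1466 and 1160 CPM in the profile-matched nuclei (1.12 ± 0.17, adjusted p = 0.00478). Its call was kept in 10 of 11 alternative fits and ended without the nuclei that had CA3 markers (0.96, adjusted p = 0.112). It was the only one to pass of the 41 tested genes on the adhesion and guidance list, of which 4 were higher and 2 lower at an unadjusted p below 0.05 (14.6%, against 12.4% of all tested genes, of which 0.699% passed). The list does not hold Alcam and Ntm, adhesion genes that fell and are described next. In the marker-selected nuclei Lrrtm4 had 1181, 2210, 1905 and 2414 CPM with overlapping genotypes, and granule neurons had 6390 to 7898 CPM. CA3 neurons had mean levels of 1770 CPM in WT and 1934 CPM in KI. Both were above the means of 657 and 1313 CPM in the profile-matched nuclei. The AMPA receptor scaffold gene Grip1 rose too, with 521, 449, 856 and 733 CPM (0.83 ± 0.16, adjusted p = 0.0202), as did the synaptic scaffold gene Magi2 with 3301, 3242, 3911 and 4339 CPM (0.45 ± 0.10, adjusted p = 0.0489). The calls of Grip1 and Magi2 ended without WT replicate 1 and without WT replicate 2. Both also ended with library totals as the scale (adjusted p = 0.0533 and 0.173, edgeR). That of Magi2 ended as well by DESeq2 (adjusted p = 0.185) and with a replicate block in edgeR (adjusted p = 0.0644). It was also lost after thinning and without the nuclei that had CA3 markers. The other named risers were Zfp46, Gm40375, Col18a1, 2810049E08Rik, Gm20713, Cdkl2, Lhfpl3, Gm32014 and Sgcz, with log2 fold changes from 1.57 to 2.63. Only 5 of the 12 named risers still passed without KI replicate 1. Zfp46 went from 2.63 to 1.10 (adjusted p = 0.852) and 2810049E08Rik from 1.98 to 1.31 (adjusted p = 0.307), and Adcy8, Col18a1, Lhfpl3, Gm32014 and Sgcz lost their calls as well. Those of Col18a1, Gm32014 and Sgcz also ended without WT replicate 1, and that of Gm20713 without KI replicate 2. Without the nuclei that had CA3 markers Sorcs1, Dpp10, Gm40375 and Sgcz were the named risers that passed. Zfp46 was not tested there, and the others that did not pass had log2 fold changes from 1.60 (Gm32014) to 2.39 (Adcy8). Gm20713 lies inside the span of Gpc5 on the opposite strand. Gm26917 passed with 164, 164, 1608 and 155 CPM, a value that KI replicate 1 alone set, and its call ended without that library.

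Another 10 genes fell. Fbxl7, an F-box protein gene, had 150, 188, 49.0 and 48.2 CPM (-1.67 ± 0.28, adjusted p = 0.00861), and its call was kept in all 11 alternative fits. Nefl, the neurofilament light chain gene, had 58.3, 45.3, 9.81 and 10.3 CPM (-2.23 ± 0.50, adjusted p = 0.0468). Map6, which encodes a microtubule-stabilizing protein, had 94.8, 110, 34.3 and 31.0 CPM (-1.51 ± 0.32, adjusted p = 0.0356). The adhesion genes Alcam and Ntm had 228, 242, 85.8 and 117 CPM (-1.12) and 737, 529, 257 and 337 CPM (-0.99). The others were Vgll3, Mndal, Runx1t1, Nr4a3 and Calr, and in all 10 both KI libraries lay below both WT libraries. Fbxl7 and Mndal passed without each library in turn, whereas each of the other 8 lost its call in at least 1 of these 4 fits. Without the nuclei that had CA3 markers Fbxl7 passed (-2.42, adjusted p = 0.0128), Vgll3 was not tested, and the other 8 did not pass. The log2 fold changes of these 8 stayed negative. They were -2.97 for Nefl, -2.13 for Calr, -1.94 for Nr4a3 and -1.74 for Mndal. Map6 had -1.64, Alcam -1.21, Ntm -0.89 and Runx1t1 -0.88.

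**Figure D4:**
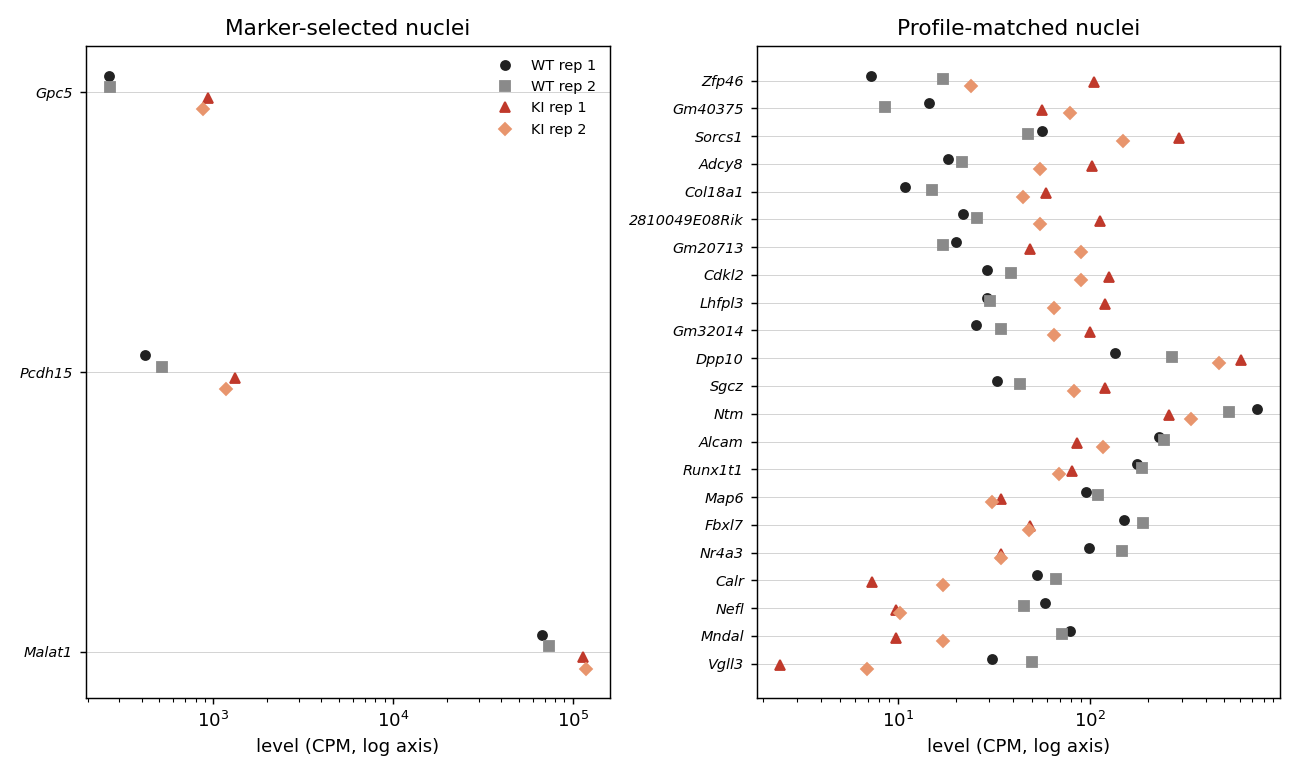
Level in CPM (log axis) per library of the 3 genes past the threshold in the marker-selected nuclei (left) and of the 22 named genes past it in the profile-matched nuclei (right). KI libraries stand above WT libraries for Gpc5, Pcdh15 and Malat1 and for the 12 upper genes on the right, and below them for the 10 lower genes from Ntm to Vgll3.

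The list of activity-induced genes was read by its members. Of 25 genes 5 were tested in the profile-matched nuclei, none had a log2 fold change above 0, and 1 passed, against 0.699% of all tested genes. An unadjusted p below 0.05 was found for 3 of the 5, against 12.4% of all tested genes. The median of the 5 was -1.03, against 0.00 over all 6296 genes, of which 50.3% were above 0. In the marker-selected nuclei 5 were also tested, with a median of -0.64 and 2 above 0, and 0 passed by edgeR or DESeq2, with 2 at an unadjusted p below 0.05. Over all genes tested in these nuclei 50.7% were above 0, 10.5% had an unadjusted p below 0.05 and 0.0665% passed by edgeR. Nr4a3, an orphan nuclear receptor gene induced by activity, had 98.4, 147, 34.3 and 34.4 CPM in the profile-matched nuclei (-1.70 ± 0.33, adjusted p = 0.0205). The call ended without WT replicate 2 (-1.40, adjusted p = 0.0972) and without the nuclei that had CA3 markers (-1.94, adjusted p = 0.0693), and DESeq2 gave no adjusted p for Nr4a3. Both KI libraries held about the same level, well under both WT libraries. Nr4a3 had 64.5, 86.0, 25.7 and 15.4 CPM in the marker-selected nuclei (-1.74 ± 0.45, adjusted p = 0.258) and log2 fold changes of -1.13 in CA3 neurons (adjusted p = 0.0120) and -2.11 in CA1 neurons (adjusted p = 0.00766).

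Its relative Nr4a1 had 34.6, 43.2, 14.7 and 3.44 CPM in the profile-matched nuclei (-1.81 ± 0.57, adjusted p = 0.191). Bdnf, the brain-derived neurotrophic factor gene, had 76.6, 97.1, 29.4 and 51.6 CPM there (-1.03 ± 0.34, adjusted p = 0.202) and 74.7, 60.5, 68.5 and 57.7 CPM in the marker-selected nuclei. Homer1 had 394, 354, 270 and 282 CPM (-0.33 ± 0.18, adjusted p = 0.472). Immediate-early genes such as Fos, Arc and Npas4 had at most 6 UMIs in any library of the profile-matched nuclei, so a difference was not detectable at this depth.

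The promoter window of Nr4a3 is shown because the letters TGACG, the core that CREB-family factors bind, are frequent in it. The RefSeq window runs from 250 bases before to 50 bases after the start (chr4:48045055-48045354, plus strand, GRCm38.p6) and holds 4 copies on either strand, in capitals.
Nr4a3: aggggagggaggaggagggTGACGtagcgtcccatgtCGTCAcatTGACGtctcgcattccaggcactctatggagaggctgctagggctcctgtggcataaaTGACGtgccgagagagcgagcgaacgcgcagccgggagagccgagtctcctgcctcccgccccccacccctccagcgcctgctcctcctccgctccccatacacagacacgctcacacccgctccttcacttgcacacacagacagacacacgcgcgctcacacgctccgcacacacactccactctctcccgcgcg
Of 32851 windows of the same length 20.8% held at least 1 copy and 1.03% at least 3. Among the other activity-induced genes described here, the window of Nr4a1 held 4 copies, those of Homer1 held 3 and 0, and of the 7 windows of Bdnf 6 held 0 and 1 held 1. The match is a description of these letters, chosen with the result known.

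Of 22 stress genes 9 were tested in the profile-matched nuclei, with a median of -0.50 and 1 above 0, and none passed by edgeR or DESeq2 (3 at an unadjusted p below 0.05). Over all tested genes 50.3% were above 0 and 12.4% had an unadjusted p below 0.05. The constitutive heat shock protein gene Hspa8 had 151, 127, 44.1 and 68.8 CPM (-1.23 ± 0.28, adjusted p = 0.0512). Hspa5, which encodes the endoplasmic reticulum chaperone BiP, had 67.5, 56.1, 19.6 and 27.5 CPM (-1.31 ± 0.39, adjusted p = 0.166) and 84.9, 70.1, 25.7 and 19.2 CPM in the marker-selected nuclei (-1.64 ± 0.42, adjusted p = 0.258). In both genes the KI libraries lay below the WT libraries.

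Calr, which encodes the calcium-binding chaperone calreticulin of the same compartment and was not on the list, fell in the profile-matched nuclei, with 52.9, 66.9, 7.36 and 17.2 CPM (-2.23 ± 0.49, adjusted p = 0.0402). These levels rest on 29, 31, 3 and 5 UMIs, DESeq2 gave no adjusted p, and the call ended without WT replicate 2 and without KI replicate 1. Calr also fell in granule, CA3 and CA1 neurons, by log2 fold changes of -1.28, -0.89 and -1.15 (adjusted p = 0.0163, 0.0336 and 0.0389). Calr and Hspa5 are shown for the endoplasmic reticulum stress element, CCAAT and CCACG set 9 bases apart on either strand, which both windows hold once (in capitals, spacer included). The windows are chr8:84846882-84847181 (minus strand) and chr2:34771840-34772139 (plus strand) in the same build.
Calr: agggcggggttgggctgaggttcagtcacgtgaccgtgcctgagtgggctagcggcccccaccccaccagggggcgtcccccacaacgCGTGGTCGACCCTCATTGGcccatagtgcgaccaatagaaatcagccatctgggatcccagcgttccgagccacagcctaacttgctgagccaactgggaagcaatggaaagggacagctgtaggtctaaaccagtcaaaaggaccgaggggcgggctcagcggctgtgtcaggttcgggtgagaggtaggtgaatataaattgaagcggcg
Hspa5: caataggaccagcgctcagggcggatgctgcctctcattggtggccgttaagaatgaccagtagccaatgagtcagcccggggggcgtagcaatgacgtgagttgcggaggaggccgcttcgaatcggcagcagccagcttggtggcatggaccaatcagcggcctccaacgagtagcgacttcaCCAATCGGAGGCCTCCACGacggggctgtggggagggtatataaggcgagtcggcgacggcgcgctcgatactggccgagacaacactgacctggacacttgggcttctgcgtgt
Of the 32851 windows 39 held this element (0.119%).

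The lists of receptor and excitability genes gave no calls in the profile-matched nuclei, where 12.4% of all tested genes had an unadjusted p below 0.05. Of 16 tested AMPA and kainate receptor genes and their auxiliary subunits none passed in the profile-matched nuclei by either tool, with 4 higher and 3 lower at an unadjusted p below 0.05 (43.8%). Gria3, an AMPA receptor subunit gene, had 709, 719, 804 and 1039 CPM (0.47 ± 0.15, adjusted p = 0.191), and the kainate receptor auxiliary gene Neto2 had 182, 112, 34.3 and 99.8 CPM (-1.13 ± 0.36, adjusted p = 0.191). Of 9 tested NMDA and metabotropic glutamate receptor genes none passed, and 1 had an unadjusted p below 0.05: Grin1, the obligatory NMDA receptor subunit gene, with 315, 345, 434 and 447 CPM (0.53 ± 0.17, adjusted p = 0.197). Of 43 tested excitability genes none passed, with 5 higher and 3 lower at an unadjusted p below 0.05 (18.6%). DESeq2 called 0 genes of these lists. In the marker-selected nuclei 0 members of any list passed by edgeR, against 3 of all 4509 tested genes. DESeq2 called 1 list member there, of the 40 tested adhesion and guidance genes, against 9 of all 4509 tested genes.

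Of 13 tested receptors for neuromodulators none passed by either tool, with 0 higher and 3 lower at an unadjusted p below 0.05 (23.1%, against 12.4% of all tested genes). The muscarinic receptor gene Chrm2 had 13, 34, 2 and 3 UMIs (-2.55 ± 0.69, adjusted p = 0.105), the corticotropin-releasing hormone receptor gene Crhr1 had 14, 15, 2 and 0 UMIs, and the adenosine receptor gene Adora1 had 69.3, 73.4, 29.4 and 41.3 CPM (-0.93 ± 0.34, adjusted p = 0.252). Of 12 other genes reported in mossy cells 7 were tested and none passed by either tool, with 3 higher at an unadjusted p below 0.05 (42.9%, against the same 12.4%). Among them the calcium-binding protein gene Necab1 had 383, 380, 422 and 533 CPM (0.43 ± 0.17, adjusted p = 0.308). The receptor genes Calcrl and Glp1r had at most 9 UMIs in any library.

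A list of 8 transcripts of glia, choroid plexus and blood stood for free RNA. Its summed level was 436, 285, 527 and 437 CPM in the profile-matched nuclei, with KI replicate 2 at the level of WT replicate 1, and 462, 309, 355 and 330.5 CPM in the marker-selected nuclei, where the genotypes overlapped. By edgeR 1 of 7 tested members passed in the profile-matched nuclei and 0 of 5 in the marker-selected nuclei, where 1 had an unadjusted p below 0.05 and DESeq2 called 0. Over all tested genes 0.699% and 0.0665% passed. Of the 7 members, 2 had an unadjusted p below 0.05, against 12.4% of all tested genes. The astrocyte marker list summed to 303, 276, 169 and 193 CPM in the profile-matched nuclei and to 394, 322, 210 and 173 CPM in the marker-selected nuclei, lower in both KI libraries than in both WT libraries. Ptgds, which encodes the prostaglandin D synthase made by oligodendrocytes and meningeal cells, had 63.8, 28.1, 159 and 89.5 CPM in the profile-matched nuclei and passed (1.56 ± 0.35, adjusted p = 0.0475), a call that ended without WT replicate 2 and without KI replicate 1 and stood at 2.29 without WT replicate 1. Apod, the apolipoprotein D gene of glia, had 34.6, 4.32, 142 and 41.3 CPM there (2.34 ± 0.55, adjusted p = 0.0554). In oligodendrocytes Ptgds had 2.01, 1.97, 5.35 and 5.64 UMIs per nucleus and Apod 1.03, 0.878, 8.14 and 2.56. Both were higher in the KI libraries there, and the part of free RNA in the values of the profile-matched nuclei was not tested.

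Of the 44 calls in the profile-matched nuclei, 42 were tested in granule neurons and 14 of them passed there in the same direction, 19 of 44 passed in CA3 neurons and 10 of 44 in CA1 neurons. Over all genes tested in these classes, in either direction, 4.25%, 2.5% and 1.09% passed. These classes come from the same 4 libraries and are no independent support. Sorcs1 was one of them, with log2 fold changes of 2.82, 2.18 and 1.30. Lrrtm4 did not pass in any of them (0.17, 0.19 and 0.30), but this difference is not by itself a test.

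The difference between classes was tested directly, by a genotype-by-class term with the library as a block. Against granule neurons 48 of 9924 genes differed for the marker-selected nuclei (0.484%) and 249 of 10251 for the profile-matched nuclei (2.43%). Without KI replicate 1, KI replicate 2 and WT replicate 2 the count for the marker-selected nuclei was 119, 168 and 81. Tspan18, a tetraspanin gene, had 126, 76.4, 133 and 61.5 CPM in the marker-selected nuclei and 126, 125, 12.7 and 23.4 CPM in granule neurons. It fell in granule neurons (log2 fold change -2.61, adjusted p = 0.00242), while the genotypes overlapped in the marker-selected nuclei (difference of log2 fold changes 2.65 ± 0.47, adjusted p = 0.0110, and 2.91 ± 0.31, adjusted p = 2.9e-09, in the profile-matched nuclei). Without KI replicate 1 the difference of 2.65 became 1.78 and did not pass (adjusted p = 0.0568), and without KI replicate 2 it became 3.73.

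Cntn4, a contactin adhesion gene, showed the opposite. It had 1636, 1439, 1597 and 873 CPM in the marker-selected nuclei and 182, 207, 667 and 536 CPM in granule neurons. Cntn4 thus rose in granule neurons (log2 fold change 1.72, adjusted p = 0.00262) from a level far below that of the marker-selected nuclei (difference -1.96 ± 0.22, adjusted p = 0.000341). The profile-matched nuclei had 2109, 2262, 2118 and 1899 CPM of Cntn4, and the difference was -1.75 ± 0.15 (adjusted p = 4.24e-11). Sfmbt2 had 21.9, 20.1, 28.5 and 23.0 CPM in granule neurons against the values in the marker-selected nuclei given above (difference -3.90 ± 0.68, adjusted p = 0.0110). The difference of Sfmbt2 was -1.77 in the profile-matched nuclei (adjusted p = 0.0305). In the marker-selected nuclei the differences of Cntn4 and Sfmbt2 passed without each library in turn.

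Against CA3 neurons, the neighbouring pyramidal cells, 5 of 13303 genes differed for the marker-selected nuclei (0.0376%) and 64 of 13400 for the profile-matched nuclei (0.478%). Without KI replicate 1, KI replicate 2, WT replicate 1 and WT replicate 2 the 5 became 44, 26, 2 and 48, and without WT replicate 1 none of the 5 genes passed (adjusted p from 0.208 to 1). Cntn4 was among the 5, with 204, 205, 391.5 and 330 CPM in CA3 neurons (-1.13 ± 0.19, adjusted p = 0.0103). Grip1 had 445, 440, 728 and 776 CPM in the marker-selected nuclei and 643, 655, 602 and 510 CPM in CA3 neurons (1.04 ± 0.20, adjusted p = 0.0300), and the difference was 0.99 ± 0.17 in the profile-matched nuclei (adjusted p = 1.63e-05). For Cdh12 and Pcdh7 the differences of 1.14 and 1.02 in the marker-selected nuclei were 0.00 and -0.29 in the profile-matched nuclei.

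Among the 64 was Kcnmb2, an auxiliary subunit gene of calcium-activated potassium channels. It had 32.8, 99.3, 2.45 and 17.2 CPM in the profile-matched nuclei and 31.1, 33.8, 35.2 and 66.2 CPM in CA3 neurons (-3.39 ± 0.52, adjusted p = 1.82e-06). Pde11a, a phosphodiesterase gene, had 58.3, 112, 41.7 and 31.0 CPM and 15.5, 19.7, 52.5 and 83.6 CPM (-3.01 ± 0.35, adjusted p = 2.12e-11). Chrm2 had 7.77, 2.29, 6.69 and 10.5 CPM in CA3 neurons, and its difference of -3.35 ± 0.74 passed (adjusted p = 0.00505). The profile-matched nuclei rest on 1 to 52 UMIs per library for these 3 genes. Their differences from CA3 neurons were not refitted without a library or without the nuclei that had CA3 markers. Those nuclei were a larger share of the profile-matched set in both KI libraries, and their part in the differences was not tested.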

How the data were processed

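Frozen hippocampi of 4 mice (2 WT, 2 KI) gave nuclei for 3' droplet libraries. The deposited values are raw UMI counts per gene and barcode, made by the authors with Cell Ranger 7.0.1 (file headers) on mm10 (submitters' processing notes). Annotation and intronic read use are not given in the sources used here. Groups came from the genotype labels. The treatment label names R88C for KI replicate 2 and R87C for KI replicate 1; both were kept in KI. Positions are from GENCODE M21, which held 32158 of the 32285 gene IDs.

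A filter of 500 genes or more and less than 5% mitochondrial UMIs removed 345 barcodes. The members and gene lists were chosen with earlier results of these data known, and the profile-matched set was added after the data had been seen. The profiles used 11394 genes with at least 10 counts, a pseudocount of 1 and no rule genes. Granule, CA3, CA1 and other classes were set by at least 3 of their markers. Nuclei with a Scrublet doublet score above 0.25 (scanpy 1.11.5; 5 marker-selected nuclei) were kept, and leaving them out was an alternative.

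Raw counts were summed per library and compared by edgeR 4.0.16 (R 4.3.3; low-count filter, TMM, quasi-likelihood test), p-values being adjusted by Benjamini-Hochberg over all tested genes with a threshold of 0.05. CPM is the count over the summed count of those nuclei. DESeq2 1.42.0, library totals, no filter, thinning, a replicate block and leaving out each library were alternatives. Named genes were the 12 per direction with the largest log2 fold change among those past the threshold, at a mean of at least 10 CPM and with genotypes that did not overlap, filled up by unadjusted p where fewer passed; the mossy cell lists with Cyfip2, Bdnf, Apod and Ptgds; the members of each other list past the threshold, or up to 3 with the largest change at a mean of at least 20 CPM; the 12 highest ratios to other classes; and up to 5 class differences per direction. Some genes that these rules select are not reported here. Further list members (Cyfip1, Nr4a1, Homer1, Fos, Arc, Npas4, Gria3, Grin1, Adora1 and others) and Grip1, Magi2 and Gm26917 were named after their values were seen. In data simulated for the marker-selected nuclei (4524 genes) 22.5% of 2-fold and 90.0% of 4-fold changes were recovered, and in those for the profile-matched nuclei (6333 genes) 42.0% and 90.3%. The simulation gave every gene the same dispersion and every library the same mix of nuclei, so these rates can be too high for the data. Sfmbt2, with a log2 fold change of -3.45 in the marker-selected nuclei, did not pass (adjusted p = 0.169, edgeR). Replicate libraries differed by more than sampling noise, with a chi-square per degree of freedom of 1.31 to 2.13. Intervals cover counting error only.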

Additional observations from a re-analysis of the deposited data

Results flagged for a closer look

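Each of the following genes changed differently between genotypes in the marker-selected nuclei than in another class of neurons, by the genotype-by-class term of edgeR with adjustment over all genes. The marker-selected nuclei are a mixed set. The mossy profile was the most likely one for 64.4% of the WT and 38.7% of the KI nuclei, and the CA1 profile for 8.48% and 29.0%. The part of this mix in the results below was not tested. Values are differences of log2 fold changes, that in the marker-selected nuclei minus that in the other class. Against granule neurons they were 3.30 for C2cd3, 3.09 for Kitl, 2.65 for Tspan18, 2.55 for Kcnk9 and 1.97 for Prr16, and -3.90 for Sfmbt2, -2.96 for Gramd1c, -2.05 for Plcxd3 and -1.96 for Cntn4. In the profile-matched nuclei C2cd3 gave 1.53 (adjusted p = 0.0628), and the other 8 passed, with that of Sfmbt2 at -1.77 (adjusted p = 0.0305). C2cd3, Kitl, Kcnk9, Sfmbt2 and Gramd1c had at most 28 UMIs in any library of the marker-selected nuclei. C2cd3, Sfmbt2, Plcxd3 and Cntn4 passed without each library in turn. The calls ended without WT replicate 1 for Kitl (adjusted p = 0.0756), without KI replicate 1 for Tspan18 (adjusted p = 0.0568) and Kcnk9 (adjusted p = 0.114, and 0.0535 without WT replicate 2), without KI replicate 2 for Prr16 (adjusted p = 0.306), and in 3 of 4 such fits for Gramd1c (adjusted p up to 0.148).

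Against CA3 neurons the differences were 1.14 for Cdh12, 1.04 for Grip1, 1.02 for Pcdh7 and 0.91 for Cntnap2, and -1.13 for Cntn4. In the profile-matched nuclei Grip1, Cntnap2 and Cntn4 passed (0.99, 0.67 and -0.95), whereas Cdh12 and Pcdh7 did not (0.00, adjusted p = 1, and -0.29, adjusted p = 0.860). Without WT replicate 1 the calls of all 5 ended (adjusted p from 0.208 to 1), and without KI replicate 2 those of Grip1 and Pcdh7 ended (adjusted p = 0.130 and 0.187). With 2 libraries per genotype no library could be tested as standing apart from its group.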

How the results depend on the processing

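The count of 3 genes in the marker-selected nuclei became 44 in the profile-matched nuclei, 33 in the members with the mossy profile (24 higher, 9 lower), 9 with DESeq2, 1 with library totals, 91 with no filter and 27 with the replicate block (22 higher, 5 lower), and it ranged from 4 to 101 when each library was left out. The count of 44 in the profile-matched nuclei became 16 with DESeq2, 96 with no filter, 72 with the replicate block, 15 without the nuclei of the CA3 class and 17 after thinning to the smallest library, and ranged from 33 to 334 when each library was left out. The count of 48 against granule neurons became 249 in the profile-matched nuclei and 20 in nuclei with at least 4 markers (range 46 to 168), and that of 5 against CA3 neurons became 64 in the profile-matched nuclei (range 2 to 48). The causes were not tested. Deviations from the genotype mean correlated by 0.03 and -0.01 between libraries of the same replicate number. Many of these genes had few UMIs, where counting noise is large, so such low values cannot exclude an effect shared by a replicate number. Pcdh7 and Sorcs3 turned to -0.02 and -0.33 in the profile-matched nuclei. Pcdh15 lost its call in 6 of 17 alternatives, Gpc5 in the nuclei with at least 4 markers and in the members with the mossy profile, and Malat1 with library totals. The lower share in KI kept its direction in each alternative that gave a ratio. The summed depth of these few nuclei limits what can be seen in genes of a few CPM.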
